A study of Mus musculus with 14 samples.

Results

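The genes described here are 9 that sense foreign or misplaced nucleic acid, pass on the signal or restrain it: Ddx58, Ifih1, Dhx58, Zbp1, Eif2ak2, Mavs, Tlr3, Trex1 and Adar. They were chosen by gene symbol, and each mapped to 1 Ensembl identifier among the 52636 genes of the deposited table. All 9 passed the filter on low values, which kept 16157 genes. The cells were tMEF, transformed mouse embryonic fibroblasts, in which the labels say that the mouse telomere protein TRF1 had been replaced by that of the naked mole rat (NMR). In all, 14 bulk RNA libraries made up 7 groups of 2, lettered A and B. The groups were wild-type NMR TRF1 in normoxia, and 3 mutant forms in both normoxia (atmospheric oxygen) and hypoxia (1% oxygen). The mutant forms were named GLAD (with the substitutions Glu69Lys, Val70Ala and Ala75Thr), TIN (with Ala105Thr alone) and GLAD/TIN, the double mutant with all 4. Wild-type NMR TRF1 in hypoxia was not analysed here, so the oxygen effect was measured only within the mutants.

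RIG-I (gene Ddx58) and MDA5 (gene Ifih1) are cytosolic helicases that bind viral or misplaced double-stranded RNA, and LGP2 (gene Dhx58) is their relative without a signalling domain. Bound RIG-I and MDA5 act through MAVS, an adaptor on the mitochondrial surface, to switch on type I interferon genes. Interferon in turn induces many of the sensors, so that fibroblasts carry a low level of them at rest and more after interferon. TLR3 reads double-stranded RNA from within endosomes and is not itself cytosolic, ZBP1 binds nucleic acid in the Z form, and PKR (gene Eif2ak2) shuts down translation when it binds double-stranded RNA. ADAR1 (gene Adar) edits double-stranded RNA, TREX1 degrades cytosolic DNA, and both limit the signal raised by the cell's own nucleic acids.

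The libraries had an estimated 11900000 to 15000000 reads, and 1 read was worth 0.0665 to 0.0839 counts per 1000000 reads (CPM). A value of 0 therefore allowed up to 0.200 to 0.252 CPM (3 reads, counting error only). The labels do not say whether libraries A and B came from separate cultures, or how many lines carried each form of TRF1. The p-values thus cover only how far these libraries spread, possibly for technical reasons, and a difference between mutants cannot be told apart from a difference between lines. The columns of the wild-type libraries are named Mouse in the deposited table, although their titles give NMR TRF1, and the TRF1 present was not checked. Mouse Terf1, the replaced gene, stood at 85.2 to 186.1 CPM over the 14 libraries and cannot show which protein was made. Double-mutant hypoxia library B had 84.6% of its low values at whole reads, against 99.9% or more, after rounding, in each of the other libraries. Of the fibroblast markers, Col1a1 and 6 others were present in every group and Thy1 stayed at or below 0.200 CPM. The 8 fibroblast markers summed to 11785 and 12581 CPM in the wild-type libraries, to 7058 to 7485 CPM in the GLAD and double mutants in normoxia, and to 3874 and 4029 CPM in TIN normoxia. The single markers did not all follow the sum. Of the 7 tested against the wild type in normoxia, 2 were higher and 4 lower in GLAD (adjusted p under 0.05 by limma). Of all genes tested, 26.9% were higher and 28.3% lower there. The double mutant had 3 higher and 4 lower, against 28.2% and 28.6% of all genes. TIN had 1 higher and 6 lower, against 31.4% and 28.8% of all genes. Mean Dcn was 406 CPM in GLAD, 1331 in the double mutant and 35.7 in TIN, against 13.0 in the wild type. Mean Col1a1 was 2495, 1699 and 854 CPM in these mutants, against 5678. Whether these differences bear on the sensors was not tested. Because these are bulk samples, fewer cells of a type and less RNA per cell cannot be told apart.

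The members lie on 7 chromosomes (GRCm38, GENCODE M21 annotation, whole gene spans with introns). Ddx58 spans chr4:40203773-40239828 on the minus strand, Ifih1 chr2:62595798-62646255 (minus), Dhx58 chr11:100694884-100704271 (minus), Mavs chr2:131234063-131248025 (plus) and Tlr3 chr8:45395665-45411080 (minus). Zbp1 spans chr2:173206612-173218923 (minus), Eif2ak2 chr17:78852564-78882573 (minus), Adar chr3:89715022-89753446 (plus) and Trex1 chr9:109057933-109059734 (minus). Of the 9 members, 7 had a promoter window in RefSeq (GRCm38.p6), which runs from 250 bases before to 50 bases after a transcription start. These were searched on both strands for a pair of GAAA copies with any 2 bases between them, the core of the interferon-stimulated response element through which interferon induces genes. The windows of Ddx58, Ifih1 and Eif2ak2 held it, all just after the start. So did 3.44% of all 32851 windows of that length, and a window of 3.99% of the 27025 genes with one. Shown are 30 bases around each match, 5′ to 3′ on the gene's strand, with the match in capitals. In Ddx58 the capitals read as the element on the other strand.

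Ddx58, chr4:40239804-40239833: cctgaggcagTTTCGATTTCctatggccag

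Ifih1, chr2:62646206-62646235: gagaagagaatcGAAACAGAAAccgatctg

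Eif2ak2, chr17:78882535-78882564: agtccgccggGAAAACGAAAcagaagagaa

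The windows of Mavs, Tlr3, Trex1 and Adar held no such pair. A shorter form, GAAANNGAA, which lies within the longer one, was searched for after these sequences had been seen. It was in 8.56% of all windows, among them the 3 above and that of an inner start of Adar. Further matches of it in the windows of Ifih1, Eif2ak2 and this inner start are not marked. The Adar match just after the inner start follows, on the plus strand.

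Adar, inner start, chr3:89730738-89730767: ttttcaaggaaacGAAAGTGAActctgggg

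The 250 bases before the start of Mavs, the adaptor gene, are given whole, as part of a window with neither form. The 50 bases after the start, where all the matches shown above lay, were searched too but are not printed. The printed stretch therefore shows no contrast with those genes. Tlr3 and Trex1, which unlike Mavs were lower in TIN, had neither form in their windows as well. The Mavs bases had 65.2% G and C.

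Mavs, chr2:131233813-131234062: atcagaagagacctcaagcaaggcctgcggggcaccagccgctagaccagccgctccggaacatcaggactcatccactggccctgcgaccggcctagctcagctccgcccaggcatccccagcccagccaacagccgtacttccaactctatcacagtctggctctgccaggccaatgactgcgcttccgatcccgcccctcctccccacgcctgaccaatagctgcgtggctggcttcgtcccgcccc

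The same windows were searched for a STAT dimer element (TTCNNNGAA) and a hypoxia response core (ACGTG). The STAT element was in those of 2 of the 7 members, Adar and Eif2ak2, and of 9.55% of all genes with a window. The hypoxia core was in those of 0 of the 7, and of 21.78% of these genes. A match is a description of the letters and not a measured site, and no match says only that these letters were not in the window searched.

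**Figure D1:**
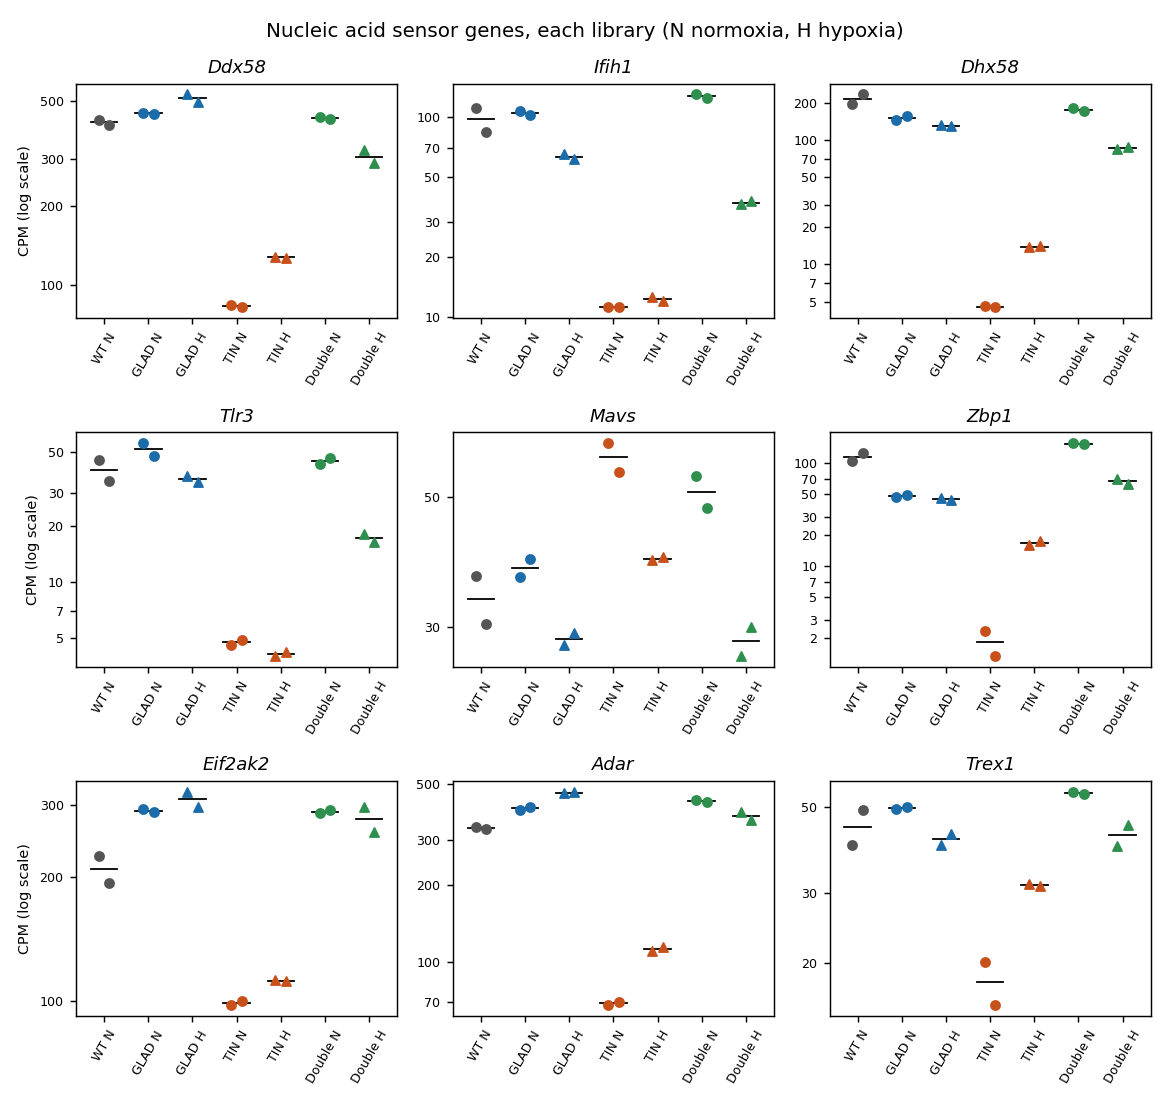
Deposited CPM (log scale) of the 9 sensor genes in each library, by group, with circles for normoxia, triangles for hypoxia and a line at the mean of the 2 libraries. The 4 TIN libraries lie below the other 10 for every gene but Mavs, where TIN normoxia is highest.

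In normoxia, the TIN mutant had far less RNA for 8 of the 9 genes than the wild type had, and more for the other, Mavs. The sharpest falls were in Zbp1 (log2 change of -5.69 ± 0.15, standard error of the limma model, n = 2 libraries a group) and Dhx58 (-5.43 ± 0.09). All 9 differences passed an adjusted p of 0.05, where 60.2% of all genes tested did, 28.8% of them lower and 31.4% higher in TIN. Over the 9 members the median log2 change was -2.34, against 0.03 over all genes tested. Changes are differences of log2(CPM + 0.5) and understate those of low genes. A level at least 2-fold lower with that adjusted p was seen in 9.94% of all genes, and in the 8 members that were lower.

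The other mutants differed from the wild type in fewer members, by at most 2.47-fold (Zbp1 in GLAD). GLAD had more Eif2ak2 and Adar and less Dhx58 and Zbp1, so 4 of the 9 members differed, against 55.2% of all genes. The double mutant had more Ifih1, Zbp1, Eif2ak2, Mavs and Adar and less Dhx58, so 6 of 9 differed, against 56.9% of all genes (28.2% up, 28.6% down). In either direction those shares are near the background, while by direction the double mutant had 5 members up and 1 down. The members' median log2 change from the wild type was 0.10 in GLAD and 0.31 in the double mutant, against -0.01 over all genes in each. All 3 comparisons share the wild-type libraries. Set against each other in normoxia, TIN had less of the same 8 genes than GLAD and more Mavs (9 of 9 called, background 51.8%, with 27.7% higher and 24.1% lower). The double mutant, which carries the TIN substitution too, had more of these 8 than TIN (8 of 9 called, background 48.7%), while its Mavs did not pass the test (-0.21 ± 0.10, adjusted p = 0.11). The 4 TIN libraries lay below all 10 others for 8 of the 9 members, as they did for 5.90% of all genes, and above all 10 for none, against 5.89% of all genes.

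**Figure D2:**
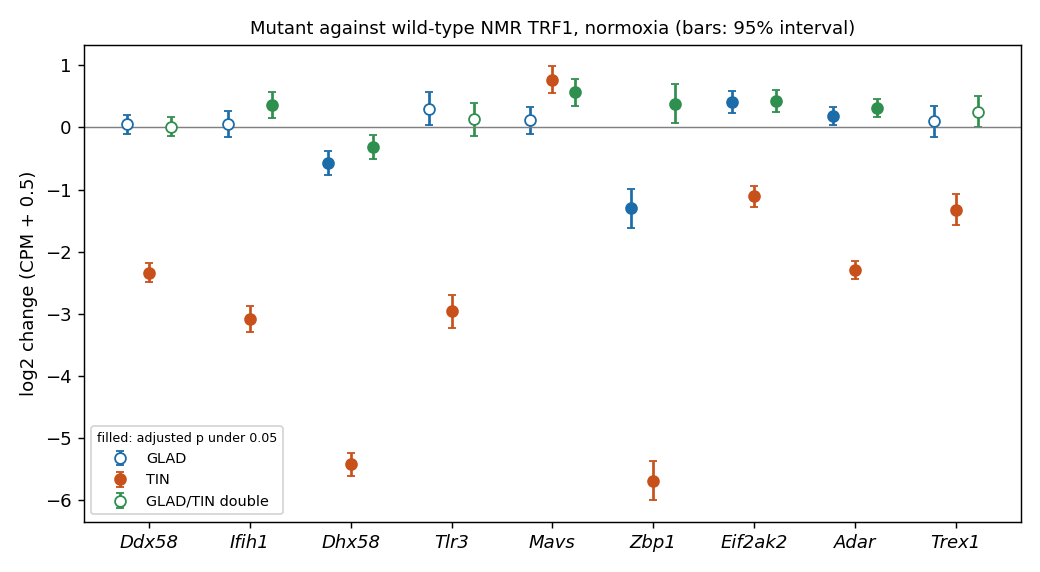
Log2 change of each sensor gene from wild-type NMR TRF1 in normoxia for GLAD, TIN and the double mutant, with 95% intervals from the limma model and filled points for adjusted p under 0.05. TIN points run from -5.69 for Zbp1 to -1.11 for Eif2ak2 with Mavs alone above 0, while GLAD and double-mutant points run from -1.31 to 0.56.

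Hypoxia moved the members in different directions in the 3 mutants. In TIN, Ddx58, Dhx58, Zbp1, Trex1 and Adar rose and Mavs fell, which made 6 of 9, against 53.9% of all genes (25.6% up, 28.3% down). In the double mutant nothing rose and 7 fell (Ddx58, Ifih1, Dhx58, Zbp1, Mavs, Tlr3 and Trex1), against 56.1% of all genes (25.8% up, 30.2% down). In GLAD, Ddx58 and Adar rose and Ifih1, Mavs and Tlr3 fell, which made 5 of 9, near the 48.1% of all genes (22.1% up, 26.0% down). The median log2 change over the members was 0.63 in TIN, -0.79 in the double mutant and -0.16 in GLAD, against -0.01, -0.05 and -0.04 over all genes. Leaving out 1 of the 4 GLAD libraries took the count in GLAD to 3 or 4. Of the 7 fibroblast markers tested, none rose and 5 fell in the double mutant (median -0.82), where their sum went from 7058 and 7384 to 5409 and 5551 CPM. In TIN none rose and 3 fell (median -0.17), and in GLAD none rose and 4 fell (median -0.18). Their part in the sensors' changes was not tested.

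**Figure D3:**
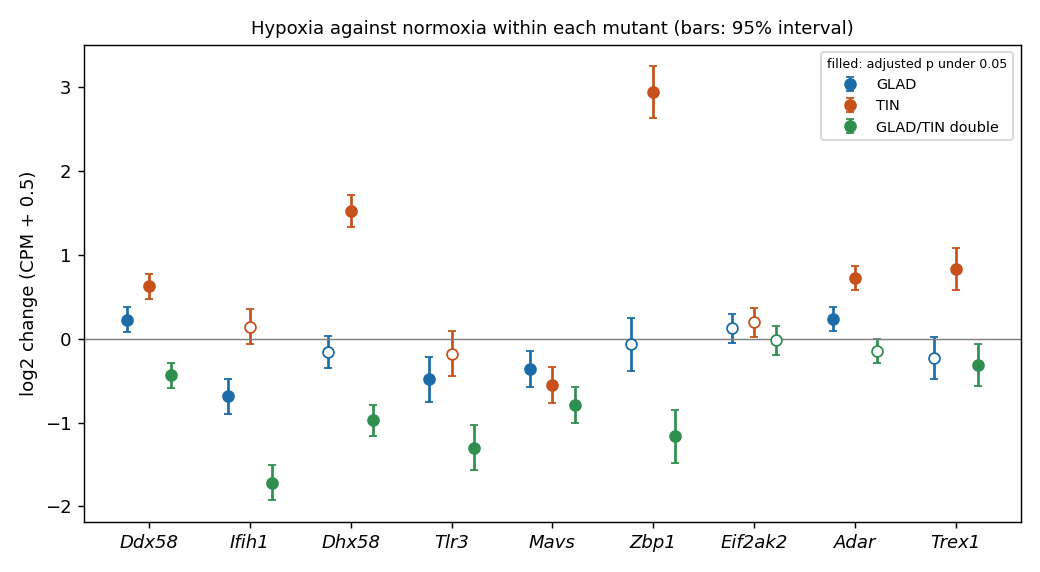
Log2 change from normoxia to hypoxia of each sensor gene in GLAD, TIN and the double mutant, with 95% intervals from the limma model and filled points for adjusted p under 0.05. Mavs and Tlr3 lie below 0 in all 3 mutants, and the other genes lie above 0 in TIN and below 0 in the double mutant. Of those other genes, Ddx58, Dhx58, Zbp1 and Trex1 have filled points in both.

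RIG-I, which detects short double-stranded RNA with a 5′ triphosphate, led the 9 per length in the wild type together with LGP2. In normoxia its gene Ddx58 was at 423 and 405 CPM in the wild type, 450.1 and 447 in GLAD, 433 and 426 in the double mutant, and 84.1 and 82.1 in TIN. TIN stood apart, 5.06-fold below the wild type (log2 -2.34 ± 0.07, adjusted p = 2.98e-15), whereas GLAD (0.05 ± 0.07) and the double mutant (0.01 ± 0.07) did not pass the test. In hypoxia it was at 530.3 and 498 CPM in GLAD, 128 and 126 in TIN, and 325 and 289.6 in the double mutant. The 2 conditions did not overlap in any mutant, with a rise of 0.63 ± 0.07 in TIN (adjusted p = 1.01e-06) and a change of -0.44 ± 0.07 in the double mutant (adjusted p = 4.71e-05). The smaller rise in GLAD (0.23 ± 0.07, adjusted p = 0.013) did not pass without GLAD normoxia library A or B or without GLAD hypoxia library A (0.16 to 0.19, adjusted p = 0.13 to 0.18). GLAD hypoxia was the highest group and TIN normoxia the lowest, and no neighbouring groups overlapped.

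The gene of MDA5, which detects long double-stranded RNA, was also lowest in TIN in normoxia, though the highest group was the double mutant and not GLAD. Ifih1 was at 111 and 84.5 CPM in the wild type, 108 and 103 in GLAD, 131 and 125 in the double mutant, and 11.2 and 11.1 in TIN. The TIN level was 8.51-fold below the wild type (log2 -3.09 ± 0.10, adjusted p = 5.37e-15), while GLAD overlapped with the wild type, whose 2 libraries lay apart. Without wild-type library A the GLAD value was 0.24 and passed (adjusted p = 0.021), and without library B it was -0.13 and did not. The double mutant was above both wild-type libraries (0.36 ± 0.10, adjusted p = 0.0048), but not past the threshold without wild-type library B (0.17, adjusted p = 0.093) or with only the compared groups fitted (0.39, adjusted p = 0.050). Hypoxia levels were 65.4 and 61.9 CPM in GLAD, 12.5 and 12.0 in TIN, and 36.6 and 38.1 in the double mutant. Ifih1 thus fell 3.28-fold in the double mutant (-1.71 ± 0.10, adjusted p = 9.28e-11) and 1.61-fold in GLAD (-0.69 ± 0.10, adjusted p = 1.74e-05), while in TIN the change of 0.15 ± 0.10 did not pass the test (95% interval -0.06 to 0.35).

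LGP2, which modulates the other helicases, had the highest mean level per length of the 9 in the wild type, overlapping with that of Ddx58. Dhx58 was at 194 and 234 CPM in the wild type, 144 and 155 in GLAD, 181 and 170.3 in the double mutant, and 4.60 and 4.50 in TIN. All groups were separate, in the order wild type, double mutant, GLAD and TIN, and TIN was 43.1-fold below the wild type (adjusted p = 6.64e-19). The lower levels of GLAD (-0.57 ± 0.09, adjusted p = 3.63e-05) and of the double mutant (-0.32 ± 0.09, adjusted p = 0.0058) also passed, the latter not without wild-type library B (-0.17, adjusted p = 0.090) or double-mutant normoxia library B (-0.29, adjusted p = 0.052), or with only the compared groups fitted (-0.28, adjusted p = 0.069). In hypoxia Dhx58 was at 132 and 129.9 CPM in GLAD, 13.7 and 14.0 in TIN, and 85.1 and 87.4 in the double mutant. It rose 2.87-fold in TIN (1.52 ± 0.09, adjusted p = 1.90e-10), still below every library of the other groups, and fell 1.96-fold in the double mutant (-0.97 ± 0.09, adjusted p = 4.46e-08). The change in GLAD (-0.16 ± 0.09) did not pass the test, except with only the compared groups fitted (adjusted p = 0.032).

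MAVS, the adaptor of RIG-I and MDA5, was higher in TIN in normoxia, where its sensors were lower. Mavs was at 36.6 and 30.4 CPM in the wild type, 36.5 and 39.2 in GLAD, 54.2 and 47.9 in the double mutant, and 61.8 and 55.2 in TIN. TIN was highest, 1.70-fold above the wild type (0.77 ± 0.10, adjusted p = 3.82e-06), the double mutant was 1.48-fold above it (0.56 ± 0.10, adjusted p = 0.00015), and GLAD overlapped with it. Hypoxia levels were 27.9 and 29.3 CPM in GLAD, 39.0 and 39.4 in TIN, and 26.7 and 29.99 in the double mutant. Mavs was the one member whose fall passed the test in all 3 mutants. It fell by 0.36 ± 0.10 on the log2 scale in GLAD (adjusted p = 0.0071), 0.55 ± 0.10 in TIN (adjusted p = 0.00019) and 0.79 ± 0.10 in the double mutant (adjusted p = 3.43e-06). None of the 3 differences between these falls passed the test (adjusted p = 0.059 to 0.33), though that between the double mutant and GLAD did with only the compared groups fitted (-0.42, adjusted p = 0.020).

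TLR3, the endosomal receptor for double-stranded RNA, had the lowest level per length of the 9 in the wild type. In normoxia Tlr3 was at 45.3 and 34.6 CPM in the wild type, 55.5 and 47.3 in GLAD, 42.9 and 46.4 in the double mutant, and 4.60 and 4.90 in TIN. The TIN level was 7.80-fold below the wild type (-2.96 ± 0.13, adjusted p = 4.43e-13). The other mutants did not pass the test, with a change of 0.30 ± 0.13 in GLAD (adjusted p = 0.051) and 0.13 ± 0.13 in the double mutant, whose libraries overlapped with the wild type. Without wild-type library A both passed (0.48, adjusted p = 0.0030 in GLAD and 0.31, adjusted p = 0.045 in the double mutant). The GLAD value lay at the threshold and also passed without GLAD normoxia library B (0.45, adjusted p = 0.035) and with other scalings, a pseudocount of 1, a filter of 5 CPM or a replicate block (adjusted p = 0.024 to 0.050). In hypoxia it was at 37.2 and 34.2 CPM in GLAD, 4.00 and 4.20 in TIN, and 18.0 and 16.4 in the double mutant. It fell 2.46-fold in the double mutant (-1.30 ± 0.13, adjusted p = 9.85e-08) and 1.40-fold in GLAD (-0.48 ± 0.13, adjusted p = 0.0045). In TIN, Tlr3 did not share the rise of the RIG-I gene (-0.18 ± 0.13, 95% interval -0.44 to 0.09).

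ZBP1, a sensor of Z-form nucleic acid that can start necroptosis, spanned the widest range of the 9. Zbp1 was at 106 and 127 CPM in the wild type, 47.7 and 49.9 in GLAD, 158 and 154 in the double mutant, and 2.35 and 1.35 in TIN, the latter estimated at 34 and 17 reads. All 4 groups were separate, with TIN 51.8-fold below the wild type (adjusted p = 2.60e-16) and GLAD 2.47-fold below it (-1.31 ± 0.15, adjusted p = 8.93e-07). The excess in the double mutant (0.38 ± 0.15, adjusted p = 0.035) did not pass without wild-type library A (0.24, adjusted p = 0.19), without either double-mutant normoxia library, with a pseudocount of 0.1 or with no filter on low values (adjusted p = 0.061 to 0.14). Hypoxia levels were 46.6 and 44.3 CPM in GLAD, 16.3 and 17.6 in TIN, and 71.2 and 62.9 in the double mutant. Zbp1 rose 7.67-fold in TIN (2.94 ± 0.15, adjusted p = 1.91e-11), fell 2.24-fold in the double mutant (-1.16 ± 0.15, adjusted p = 2.55e-06), and in GLAD its change of -0.07 ± 0.15 did not pass the test.

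PKR, the kinase that blocks translation on binding double-stranded RNA, changed least in TIN among the members that fell. Eif2ak2 was at 225 and 194 CPM in the wild type, 293 and 289 in GLAD, 286 and 291 in the double mutant, and 97.7 and 99.6 in TIN. TIN was 2.16-fold below the wild type (-1.11 ± 0.08, adjusted p = 1.49e-09), whereas GLAD (0.41 ± 0.08, adjusted p = 0.00039) and the double mutant (0.43 ± 0.08, adjusted p = 0.00026) were above it and overlapped with each other. In hypoxia the gene was at 323 and 297 CPM in GLAD, 113 and 111 in TIN, and 296 and 258 in the double mutant. None of the 3 oxygen effects passed the test, although both TIN hypoxia libraries were above both TIN normoxia libraries (0.20 ± 0.08, adjusted p = 0.051). That value lay at the threshold, and with the replicate letter as a block, a filter of 5 CPM, upper-quartile scaling or only the compared groups fitted it passed (adjusted p = 0.0040 to 0.048).

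ADAR1, which edits double-stranded RNA and keeps the cell's own transcripts from being sensed, was lower in TIN as well. Adar was at 339 and 333 CPM in the wild type, 396 and 405 in GLAD, 431 and 424 in the double mutant, and 68.1 and 69.9 in TIN. TIN was 4.94-fold below the wild type (-2.30 ± 0.07, adjusted p = 1.88e-15), while GLAD (0.19 ± 0.07, adjusted p = 0.026) and the double mutant (0.31 ± 0.07, adjusted p = 0.00092) were above it. The GLAD value did not pass without GLAD normoxia library B (0.21, adjusted p = 0.081) or with only the compared groups fitted (0.23, adjusted p = 0.056). In hypoxia it was at 457 and 464 CPM in GLAD, 111 and 115 in TIN, and 387 and 359 in the double mutant. It rose in TIN (0.72 ± 0.07, adjusted p = 9.47e-08) and in GLAD (0.24 ± 0.07, adjusted p = 0.0082), the latter not past the threshold without any 1 of the 4 GLAD libraries (0.16 to 0.23, adjusted p = 0.052 to 0.18). The change in the double mutant (-0.15 ± 0.07, adjusted p = 0.075) did not pass, though it did without scaling and without double-mutant hypoxia library A.

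TREX1, the exonuclease that clears cytosolic DNA, was lower in TIN in normoxia and rose there in hypoxia. Trex1 was at 39.8 and 48.9 CPM in the wild type, 49.3 and 49.9 in GLAD, 54.5 and 53.9 in the double mutant, and 20.04 and 15.6 in TIN. TIN was 2.50-fold below the wild type (-1.32 ± 0.12, adjusted p = 1.87e-08), and neither other mutant passed the test (0.10 ± 0.12 in GLAD and 0.25 ± 0.12 in the double mutant). The double mutant passed without wild-type library B (0.41, adjusted p = 0.0050) and with no scaling (0.29, adjusted p = 0.041). In hypoxia it was at 39.9 and 42.5 CPM in GLAD, 31.8 and 31.4 in TIN, and 39.7 and 44.8 in the double mutant. It rose 1.78-fold in TIN (0.83 ± 0.12, adjusted p = 1.05e-05) and fell in the double mutant (-0.31 ± 0.12, adjusted p = 0.032), a call that was lost with upper-quartile scaling, with no filter, and without double-mutant normoxia library A or B or hypoxia library A (-0.24 to -0.34, adjusted p = 0.069 to 0.19). The change in GLAD was -0.23 ± 0.12 (adjusted p = 0.12), and passed with only the compared groups fitted (adjusted p = 0.012).

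The differences between the oxygen effects were themselves tested. Between TIN and GLAD, 6 of 9 members differed, all with the larger value in TIN (Ddx58, Ifih1, Dhx58, Zbp1, Trex1 and Adar), against 33.9% of all genes (16.4% larger in TIN). Between the double mutant and GLAD, 6 of 9 differed, all with the lower value in the double mutant (Ddx58, Ifih1, Dhx58, Zbp1, Tlr3 and Adar), against 14.6% of all genes (6.90% higher and 7.67% lower in the double mutant). Without single libraries that count was 4 to 6. Between the double mutant and TIN, 7 of 9 differed, all lower in the double mutant, against 42.8% of all genes (21.4% lower). Eif2ak2 and Mavs passed in none of the 3. Eif2ak2 did between the double mutant and TIN without double-mutant hypoxia library A (-0.33, adjusted p = 0.032), and Mavs with only the compared groups fitted, as given above. The widest gap was in Zbp1, at -4.10 ± 0.21 between the double mutant and TIN (adjusted p = 9.63e-11). Ddx58, Dhx58, Zbp1 and Trex1 rose in TIN and fell in the double mutant, as did 3.18% of all genes.

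Within hypoxia TIN was again the lowest of the 3 mutants for 8 members and the highest for Mavs. TIN was below GLAD for 8 of 9 and above it for Mavs (0.47 ± 0.10), against 63.1% of all genes called (31.1% higher, 32.0% lower). The double mutant was above TIN for 8 of 9 and below it for Mavs (-0.44 ± 0.10), against 64.0% of all genes called (32.1% higher, 31.9% lower). Against GLAD the double mutant had less Ddx58, Ifih1, Dhx58, Tlr3 and Adar and more Zbp1, so 6 of 9 were called, against 42.6% of all genes (21.6% higher, 21.0% lower). In normoxia it had had more Ifih1, Dhx58, Zbp1 and Mavs than GLAD and less of none, so 4 of 9 were called, against 35.7% of all genes. That last count fell to 1 or 2 without any 1 of the 4 libraries and to 2 with no filter.

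Per kilobase of exon, the order of the 9 genes changed in TIN. In the wild type in normoxia Dhx58 (65.3 ± 8.6 CPM per kb, SD, n = 2) and Ddx58 (58.8 ± 1.8) led and overlapped, followed by Adar, Eif2ak2, Trex1 and Zbp1 (41.3 to 33.0), whose neighbours overlapped too. Ifih1 (12.0), Mavs (10.0) and Tlr3 (7.67) were lowest. In TIN normoxia Eif2ak2 led (19.3 ± 0.26 CPM per kb), then came Mavs (17.5 ± 1.4) and Trex1 (15.5 ± 2.7), which overlapped, and Dhx58 (1.39), Ifih1 (1.37), Tlr3 (0.91) and Zbp1 (0.52) were lowest. In TIN normoxia the adaptor thus had a higher level per length than Ddx58 and Ifih1, while in the wild type it was below Ddx58 and overlapped with Ifih1.

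Annotated neighbours share exon sequence with 5 of the 9 genes, and the strand setting of the counting was not given in the sources used here. All 1147 exon bases of Trex1 lie within exons of Atrip on the same strand, so how reads were divided between the 2 cannot be known. Atrip, a partner of the kinase ATR, was not lower in TIN: its mean was 19.4 CPM in the wild type, 27.3 in TIN normoxia and 29.5 in TIN hypoxia. Chrnb2, which encodes a neuronal acetylcholine receptor subunit, shares 1365 exon bases with Adar on the opposite strand. Its mean of 114 CPM in the wild type was 17.9 in TIN normoxia and 40.3 in TIN hypoxia, the order of these 3 groups in Adar. In normoxia it was lower than the wild type in GLAD (-0.35) and the double mutant (-0.22), where Adar was higher. Without strand the reads of the 2 genes cannot be told apart. Dhx58os, antisense to Dhx58 over 141 exon bases, was at 34.7 CPM in the wild type and 2.37 in TIN normoxia. Eif2ak2 and Tlr3 share 174 and 381 exon bases with the opposite-strand genes Gm26637 and Gm45542, which reached at most 18.6 and 1.95 CPM.

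Interferon beta, a cytokine made downstream of MAVS, was low throughout. Ifnb1 was at 0.85 and 0.90 CPM in the wild type, 0.35 in both GLAD normoxia libraries, 0.40 and 0.45 in the double mutant and 0 in both TIN normoxia libraries, where 3 reads would be 0.207 and 0.245 CPM. In hypoxia it was at 2.00 and 0.65 CPM in GLAD, 0.20 and 0 in TIN, and 2.70 and 2.75 in the double mutant. Ifnb1 rose in the double mutant (1.84 ± 0.29, adjusted p = 3.11e-05), and in GLAD (1.01 ± 0.29, adjusted p = 0.0081). Of the 20 interferon genes listed, Ifnb1 alone passed the filter on low values.

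**Figure D4:**
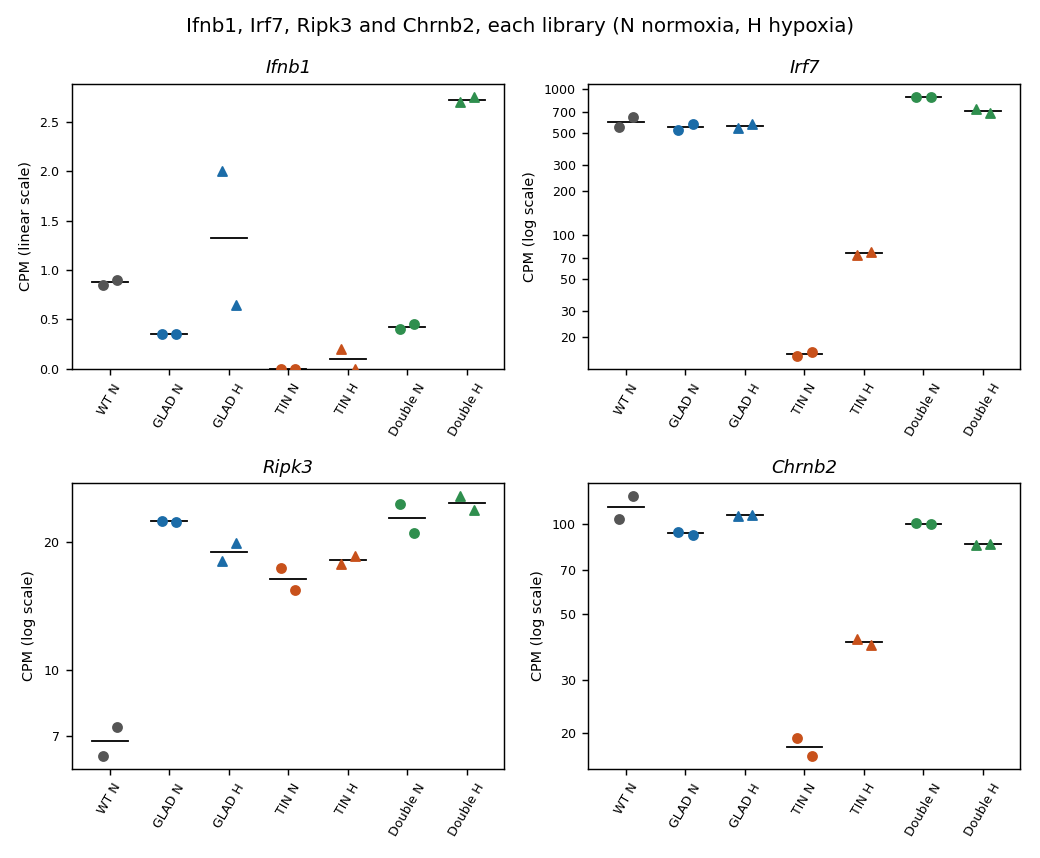
Deposited CPM in each library, by group, of interferon beta (Ifnb1, linear scale from 0), the transcription factor gene Irf7, the kinase gene Ripk3 (both log scale), and Chrnb2, which overlaps Adar on the other strand (log scale). Circles are normoxia, triangles hypoxia and lines the mean of 2 libraries; Irf7 rises from 14.8 and 15.8 to 73.1 and 76.3 CPM in TIN, and Ifnb1 is highest in the double mutant in hypoxia.

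Interferon-induced genes outside the members were counted next, from a list chosen with earlier results of these data known. All 30 listed were lower in TIN than in the wild type in normoxia, against 28.8% of all genes. Their median log2 change was -4.23 (all genes 0.03), and Oas2, which makes an activator of RNase L, was among them (-7.12 ± 0.08). In hypoxia 27 of the 30 rose and 1 fell in TIN, against 25.6% of all genes up and 28.3% down. The rises were led by Cxcl10, a chemokine (2.83 ± 0.08), Oas2 (2.42 ± 0.08) and Oasl2 (2.13 ± 0.08). In the double mutant 3 rose and 23 fell, against 25.8% of all genes up and 30.2% down. The falls were led by Ifit3 (-1.76 ± 0.09), Ifit1 (-1.71 ± 0.07), which binds foreign RNA ends, and Oas2 (-1.49 ± 0.08). In GLAD 3 rose and 16 fell, against 22.1% of all genes up and 26.0% down. Rsad2, the antiviral enzyme viperin, rose (1.39 ± 0.12), as did Cxcl10 (1.01 ± 0.08), and Ifit1 fell (-0.79 ± 0.07). All 30, like every member but Mavs, were thus lower in TIN than in the wild type.

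Genes listed for RIG-I signalling changed less uniformly. Of 18 listed, 5 were higher and 7 lower in TIN than in the wild type in normoxia, with a median of -0.07, a share near that of all genes (60.2% called). Irf7, the factor that amplifies interferon transcription and is itself induced by interferon, was at 545 and 641 CPM in the wild type and at 14.8 and 15.8 in TIN, while Irf3, which acts first, did not pass the test (0.16 ± 0.12). Trim25, a ubiquitin ligase reported to act on RIG-I, was also lower in TIN (-1.61 ± 0.07). Rnf135, also on the list, had a mean of 7.65 CPM in TIN normoxia and 21.1 in the wild type. In hypoxia 5 of the 18 rose and 7 fell in TIN, against 53.9% of all genes called. Irf7 gained most there (2.26 ± 0.09) and Tomm70a, a mitochondrial import receptor that binds MAVS, fell (-1.10 ± 0.08). In the double mutant 3 rose and 4 fell, against 56.1% of all genes called, with Tbkbp1, Traf6 and Ikbke rising (1.26, 1.05 and 1.00). In GLAD 2 rose and 6 fell, against 48.1% of all genes called, with Traf6 and Tbkbp1 rising (0.99 and 0.70) and Rnf135 falling (-0.89 ± 0.13). Mean Rnf135 also went from 17.3 to 9.27 CPM in the double mutant.

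Partners of the other members were counted in the same way, and these counts are to be read against the 48.1% of all genes called for hypoxia in GLAD, 53.9% in TIN and 56.1% in the double mutant. Of 9 DNA-sensing genes tested, 1 rose and 6 fell in the double mutant in hypoxia, led by Tmem173, which encodes STING, the adaptor of DNA sensing (-1.66 ± 0.12), and 3 rose and 1 fell in TIN, where Tmem173 did not pass the test (-0.05 ± 0.12). In GLAD 2 rose and 3 fell, Tmem173 among the latter (-0.62 ± 0.12). Of 7 tested partners of ZBP1 and TLR3, 1 rose and 4 fell in GLAD, 1 fell in TIN, and 1 rose and 3 fell in the double mutant. Ticam1, the adaptor of TLR3, fell in the double mutant (-0.88 ± 0.09) and in GLAD (-0.28 ± 0.09). Ripk3, the kinase ZBP1 acts through, was at 6.30 and 7.35 CPM in the wild type and higher in all 3 mutants in normoxia, TIN included (1.18 ± 0.12 in TIN, 1.59 ± 0.12 in GLAD, 1.63 ± 0.12 in the double mutant). Of 9 partners of PKR and other eIF2 alpha kinases, 4 rose in GLAD, 2 rose and 2 fell in TIN, and 3 rose in the double mutant. Ppp1r15a, which reverses the translation block that PKR imposes and is induced by several stresses, rose in hypoxia in GLAD (1.82 ± 0.09), TIN (2.38 ± 0.09) and the double mutant (2.07 ± 0.09), where Eif2ak2 itself passed in none. Of 10 tested genes for clearing or editing nucleic acid, 3 rose and 6 fell in the double mutant. In TIN 2 rose and 1 fell, and in GLAD 3 rose and 2 fell. Ern1 rose in GLAD (1.05 ± 0.10), TIN (0.27 ± 0.10) and the double mutant (1.10 ± 0.10). Pnpt1 fell in GLAD (-0.46 ± 0.10), TIN (-0.70 ± 0.10) and the double mutant (-0.80 ± 0.10). Adarb1, the second editing enzyme, rose in GLAD (0.79 ± 0.10). Its mean also went from 49.2 to 58.5 CPM in the double mutant and from 28.8 to 30.3 CPM in TIN.

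The mean profile of Ddx58, Ifih1 and Dhx58 over the 7 group means was compared with 11949 other genes of at least 5 CPM on average. The most alike were Ddx60, Lgals3bp, Trim30a, Cmpk2, Iigp1, Trim12c, Oas2, H2-M3, Ifit3b and Gbp3, with Pearson r from 0.996 to 0.992, over 7 points that share the low TIN groups. Among the members r with that profile was 0.98 for Tlr3, 0.96 for Adar, 0.92 for Eif2ak2 and Trex1, and 0.91 for Zbp1, against -0.51 for Mavs. These are descriptions of 7 points. Ddx60, itself a helicase gene, had group means of 6.13 in the wild type, 0.82 in TIN normoxia and 2.14 in TIN hypoxia on the log2(CPM + 0.5) scale.

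Of the immune cell markers, which could mark cells rich in these sensors, Cd3e was at 0 in every library. In a group mean Ptprc and Adgre1 reached at most 0.05 CPM, Itgam 0.18 and Cd79a 0.575. Lyz2 had means of 2.60 and 2.12 CPM in GLAD normoxia and hypoxia. Its means were 0.40 in the wild type, 0.80 and 0.35 in the double mutant in normoxia and hypoxia, and 0.10 and 0.45 in TIN. Cd68 and Csf1r, which fibroblast lines can carry, made up most of the summed level of the 8 markers, which was 34.4 to 44.7 CPM in the wild type and 24.6 to 26.4 in TIN normoxia, and was 66.0 to 70.0 in TIN hypoxia, 69.4 to 69.6 in GLAD hypoxia and 56.3 to 58.1 in the double mutant in hypoxia. Most of the difference between conditions was in Cd68, whose mean went from 17.3 to 44.0 CPM in GLAD, from 7.20 to 40.4 in TIN and from 10.6 to 39.3 in the double mutant. The 4 epithelial markers summed to at most 3.00 CPM and the 3 endothelial markers to at most 3.25 CPM in any library. The part of these cells in the results was not tested.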

How the data were processed

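The 14 libraries were measured by bulk RNA sequencing of total RNA (TruSeq kit), per the labels' protocols. The authors deposited CPM (counts per 1000000 reads), made after alignment with STAR and counting with HTSeq on the mouse genome (GRCm38.p4 and mm10), per the submitters' processing notes. Versions, annotation release and strand setting are not given in the sources used here. Depth was estimated from the steps between low CPM values. Each library was rescaled by TMM (trimmed mean of M values, trimming shares of 0.3 for ratios and 0.05 for levels; factors 0.965 to 1.04), then 0.5 was added and log2 taken. Genes with at least 1 CPM in 2 libraries were kept (16157 of 32273 above 0). limma 3.58.1 in R 4.3.3 fitted 7 group means (7 residual and 10.9 prior degrees of freedom), with Benjamini-Hochberg adjustment over all kept genes within each of 15 comparisons. An adjusted p under 0.05 was called. The fit was tested on simulated data. All members are named, and so are the 10 most alike genes. For each list and oxygen effect, up to 3 called genes of at least 5 CPM with the largest change were marked for naming. Only some of these are named. Genes named beyond that rule, such as Irf3, Ripk3, Ifnb1, Atrip, Chrnb2 and Terf1, were chosen after their values were seen. Members and lists were chosen with earlier results of these data known. The alternatives were other pseudocounts, scalings and filters, a replicate block, fits of the compared groups only and leaving out each library.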

Additional observations from a re-analysis of the deposited data

Results flagged for a closer look

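Each difference below is between 2 oxygen effects (log2, hypoxia against normoxia) and passed an adjusted p of 0.05 by limma's test of the difference itself, with 2 libraries a group. Any 2 of the 3 comparisons share a mutant's libraries.

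TIN minus GLAD was 0.40 for Ddx58, 0.83 for Ifih1, 1.68 for Dhx58, 3.01 for Zbp1, 1.06 for Trex1 and 0.49 for Adar. Of these genes, Ifih1 was the one whose effect in TIN did not itself pass the test (0.15).

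The double mutant minus GLAD was -0.67 for Ddx58, -1.03 for Ifih1, -0.81 for Dhx58, -1.10 for Zbp1, -0.82 for Tlr3 and -0.38 for Adar. The Adar difference was lost without GLAD normoxia library A or B, double-mutant normoxia library A or GLAD hypoxia library B (adjusted p = 0.053 to 0.10), and that of Tlr3 without GLAD normoxia library B (adjusted p = 0.053).

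The double mutant minus TIN was -1.06 for Ddx58, -1.86 for Ifih1, -2.50 for Dhx58, -4.10 for Zbp1, -1.12 for Tlr3, -1.14 for Trex1 and -0.87 for Adar. Zbp1 in TIN started from 2.35 and 1.35 CPM.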

How the results depend on the processing

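Of 1080 repeats of the members' tests under the alternatives, 1022 kept direction and side of the threshold, 21 newly passed, 29 no longer passed and 8 changed sign, none of these passing in either fit. The count of sensors that differed between the double mutant and GLAD in normoxia was 2 with no filter, and 1 to 2 without single libraries. The count for hypoxia in GLAD was 3 to 4 without single GLAD libraries. The signs that changed were those of Eif2ak2 for hypoxia in the double mutant (0.052 with upper-quartile scaling, and -0.14 to 0.10 without single libraries) and of some differences from the wild type without single libraries. These ranged for GLAD from -0.13 to 0.24 (Ifih1), -0.0046 to 0.23 (Mavs) and -0.057 to 0.26 (Trex1), and for the double mutant from -0.0077 to 0.051 (Ddx58) and -0.049 to 0.31 (Tlr3). With 1 library left in a group, that library was assumed to vary like the other groups. Over all genes, the 2354 called for the double mutant minus GLAD were 1442 to 2285 without single libraries, and the 5764 called between these mutants in normoxia were 3800 to 4105. Upper-quartile or no scaling moved the median of all genes by at most 0.07.

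The replicate letters gave no pairing: the deviations of same-lettered libraries correlated above 0.1 in 3 of 21 pairs of groups (-0.10 to 0.16). With the replicate block, 7 sensors were called for hypoxia in TIN and 5 for GLAD against the wild type, and the other counts were as without it. The planned count tests were not run, since whole reads were not recovered for all libraries. The depth limits low values, such as those of Ifnb1 and, in TIN, of Zbp1.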
